A study of Mus musculus with 12 samples.

Results

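The transcripts described here are 37 genes of glycolysis and of the response to low oxygen, listed by name for this work and found on the array by the gene name that the scanner files give each probe. All 37 were found. Of their 64 probes, 62 passed the filter on dim probes, which asked that every array of some group be well above background. These 62 covered 37 of 37 genes; on the whole array 26261 probes and 18545 genes passed. The members were taken by name and not by a cutoff on measured values, apart from the filter on dim probes. The list was drawn up with earlier results of these data known. Pkm2 and Ero1l, as the files write them, are now called Pkm and Ero1a.

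Regulatory T cells (Treg) sorted from the spleens of female C57BL/6 mice were measured on 12 arrays, 3 in each of 4 groups. The genotypes were a conditional knockout of Cd83 (CD83cKO, here KO) and wild type (WT). Cd83 encodes a surface protein of the immunoglobulin family that activated lymphocytes and mature dendritic cells display. The labels name no Cre driver, and the series title places the work in Foxp3+ T cells. Cells were taken without activation (0 h) or activated for 3 h by anti-CD3 and anti-CD28, antibodies that stand in for antigen and costimulation. WT mice were 9 weeks old at both times. KO replicates 1 and 2 came from mice of 10 weeks at both times, and KO replicate 3 came from a mouse or mice of 21 weeks at both times. The series counts 6 mice for 12 arrays, so some arrays share a mouse, and no label says which; p-values therefore measure the spread between arrays, which may be in part technical.

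Glycolysis splits glucose into pyruvate in the cytosol. Transporters bring glucose in, hexokinase traps it as glucose 6-phosphate, phosphofructokinase commits it to the pathway, and the lower enzymes recover ATP and NADH; lactate dehydrogenase then reduces pyruvate to lactate, which monocarboxylate transporters carry out of the cell, or pyruvate dehydrogenase admits it to the mitochondria. When oxygen is low, prolyl hydroxylases of the Egln family no longer mark the factor encoded by Hif1a for destruction, and it binds promoters and enhancers with the core letters ACGTG or GCGTG and raises transcription of many glycolytic genes. Signals from the antigen receptor raise the same factor at normal oxygen. Conventional effector T cells rely heavily on glycolysis, while Treg are known for a greater use of oxidative metabolism.

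The promoters of 4 members that changed on activation of WT cells are shown to set windows with the motif beside one without it. Across the member promoters the count of ACGTG matches reached 5, in Ldha. A CACGTG palindrome counts as 2 matches, 1 on each strand, and that Ldha window holds 2 palindromes. The windows shown are the 250 bases before the RefSeq gene start on build GRCm38.p6. They are written 5' to 3' on the strand of the gene, with ACGTG on either strand in capitals. Slc16a3 (chr11:120948817-120949066, plus strand), Egln3 (chr12:54203875-54204124, minus strand) and Pdk3 (chrX:93832151-93832400, minus strand) rose, and Pdk1 (chr2:71872974-71873223, plus strand, the more upstream of 2 starts) fell; they were chosen after their values were seen.
Slc16a3: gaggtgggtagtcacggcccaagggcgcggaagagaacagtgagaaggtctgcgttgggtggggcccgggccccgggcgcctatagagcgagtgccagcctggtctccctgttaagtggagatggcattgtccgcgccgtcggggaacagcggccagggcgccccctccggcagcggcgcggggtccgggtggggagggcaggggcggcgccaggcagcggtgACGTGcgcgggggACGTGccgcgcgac
Egln3: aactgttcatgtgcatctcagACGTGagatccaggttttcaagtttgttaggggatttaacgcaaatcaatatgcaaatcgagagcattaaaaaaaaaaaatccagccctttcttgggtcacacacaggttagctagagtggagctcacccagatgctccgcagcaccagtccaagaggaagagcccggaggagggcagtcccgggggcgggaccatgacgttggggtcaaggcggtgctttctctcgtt
Pdk3: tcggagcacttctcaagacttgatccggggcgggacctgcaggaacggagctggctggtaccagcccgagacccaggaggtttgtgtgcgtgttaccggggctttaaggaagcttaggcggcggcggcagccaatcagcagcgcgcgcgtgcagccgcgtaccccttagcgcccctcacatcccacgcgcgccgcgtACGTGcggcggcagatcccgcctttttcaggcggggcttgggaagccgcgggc
Pdk1: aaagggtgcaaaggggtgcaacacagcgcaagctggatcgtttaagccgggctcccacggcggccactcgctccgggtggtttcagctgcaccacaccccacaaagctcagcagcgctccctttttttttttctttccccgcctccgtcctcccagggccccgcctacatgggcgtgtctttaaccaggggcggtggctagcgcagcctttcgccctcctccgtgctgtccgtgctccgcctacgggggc
Slc16a3 held 2 matches, 27 and 14 bases before the start. Egln3 held 1 match at 229 bases and Pdk3 held 1 at 53 bases, and this Pdk1 window held none, although it held 1 match to GCGTG. Promoters of 34 of the 37 members matched the table by symbol; Bnip3l, Ndrg1 and Slc2a3 did not. Among these 34, ACGTG stood on at least 1 strand of at least 1 promoter in 22 (64.7%), against 18.5% of all 27025 genes in the table. The motif GCGTG stood in 67.6% of members and 30.9% of all genes. The palindrome CACGTG, which contains ACGTG on both strands, stood in 17.6% and 6.86%. By direction in WT cells, ACGTG was found in 6 of the 9 matched members that rose, 3 of the 6 that fell and 13 of the 19 that were not called. The 3 that fell with ACGTG were Ddit4, Pfkm and Slc16a1. GCGTG was found in 6 of the 9 that rose, 6 of the 6 that fell and 11 of the 19 not called. The 4 windows shown are therefore no guide to direction. A match says only that these letters stand in the window.

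Several features of the samples touch the results below. One slide carried the whole KO set (6 arrays), and each WT time had a slide of its own, so genotype and slide, and activation and slide within WT, cannot be told apart, whereas activation within KO lies within 1 slide. Cd83 was lower on every KO array than on every WT array of the same time, with 0 h levels (log2) from 0.23 to 0.75 against 2.17 to 2.39. The probe for Foxp3, the defining Treg factor, passed the background test on 6 of 6 KO arrays but on 0 of 6 from WT. The other Treg markers read here, among them Il2ra, Ctla4 and Ikzf2, passed it on 3 of 3 WT arrays at each time. At 0 h each of these others was lower on every KO array than on every WT array. At 3 h the genotypes overlapped for some, such as Il2ra. The KO arrays from 21-week mice stood apart. Averaged over 10 T cell markers, their log2 levels were -1.79 at 0 h and -2.56 at 3 h against the WT 0 h mean, while the other 10 arrays lay between -0.615 and 0.07. The mean of 4 plasma cell markers was 7.17 and 7.66 on those arrays and at most 2.61 on any other, and the mean of 10 Treg markers was -2.28 and -2.10. The 8 erythroid markers differed between genotypes at 0 h by a median of 2.96, with 8 at an unadjusted p under 0.05 and 0 called (limma); their summed level, on the linear scale relative to the 75th percentile, was 41.2 to 79.0 in KO and 4.03 to 17.2 in WT at 0 h, and 4.67 to 50.3 and 2.15 to 14.6 at 3 h. Monocyte and macrophage markers differed between genotypes at each time and between times in each genotype. Their summed level was 26.6 to 40.5 in KO and 5.18 to 9.51 in WT at 0 h, and 4.97 to 9.85 and 1.05 to 1.46 at 3 h. KO at 3 h thus overlapped WT at 0 h. Of these markers, 11 of 12 were higher in KO at 0 h and 10 of 12 at 3 h, and 10 of 12 fell on activation in WT. Over all genes, 1.82% were called higher in KO at 0 h and 1.26% at 3 h, and 16.6% were called lower on activation in WT. In RNA pooled from many cells, fewer cells of a type and less RNA per cell cannot be told apart. Each comparison of the members is therefore given with and without the arrays from 21-week mice.

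Levels below are log2 processed intensities minus the 75th percentile of their array, so 0 is the brightness at that percentile; each gene is read by its brightest probe, and levels of different genes are not comparable. A difference is the difference of group means on that scale, with the standard error (SE) of the limma fit, and a gene is called where the Benjamini-Hochberg adjusted p over all 18545 genes was under 0.05.

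**Figure D1:**
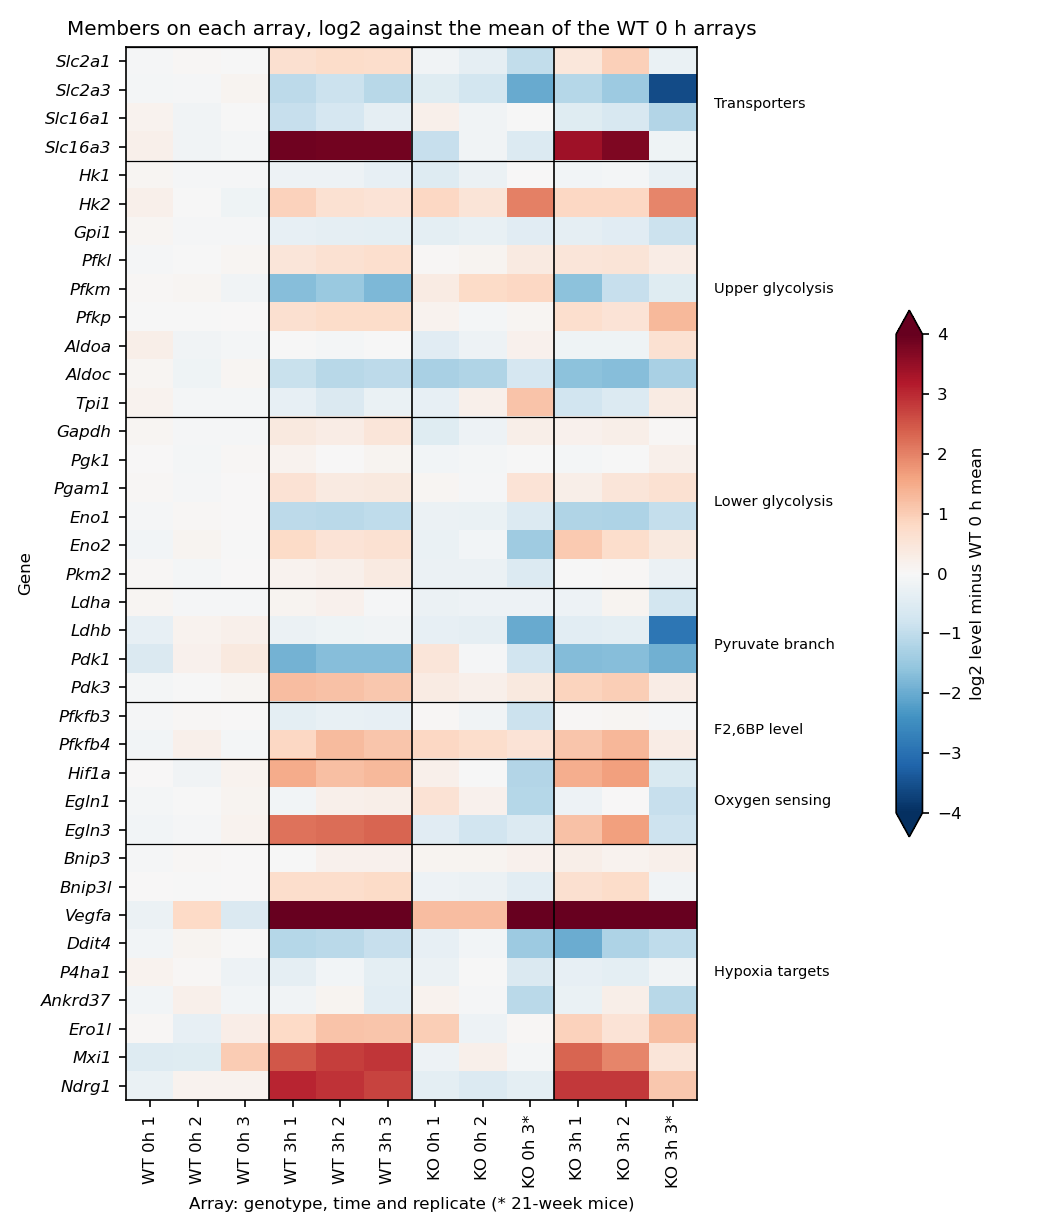
Heat map of the 37 members (rows, by role) on the 12 arrays (columns), coloured by log2 level minus the mean of the 3 WT arrays at 0 h; colours saturate at 4. The WT columns at 3 h show Slc16a3, Vegfa, Ndrg1, Mxi1 and Egln3 in red and Pdk1, Pfkm, Aldoc, Eno1 and Ddit4 in blue, and the column of the 21-week KO array at 3 h lacks the red of Slc16a3, Egln3 and Hif1a.

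In WT cells activated for 3 h, transcripts of the lactate exporter Slc16a3, the oxygen sensor Egln3 and several hypoxia targets were higher. Pfkm, Aldoc, Pdk1 and the probe named Eno1 were lower. Activation and slide cannot be told apart in WT. How many glycolytic enzymes were called depended on the arrays in the fit: 4 of 9 in upper and 1 of 6 in lower glycolysis with 12 arrays, and 6 of 9 and 4 of 6 without the 21-week KO arrays. Calls over all genes rose too, from 13.3% higher and 16.6% lower with 12 arrays to 23.2% and 31.3% without those arrays. The rise in the counts is therefore not shown to be particular to these enzymes. Of 37 members, 11 rose (29.7%, against 13.3% of all genes) and 6 fell (16.2%, against 16.6% of all genes). The median over the members was 0.11, and over all genes -0.14. Hypoxia targets outside glycolysis had 5 of 9 members higher and 1 lower; upper glycolysis had 2 higher and 2 lower, and lower glycolysis 0 higher and 1 lower.

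Among the transporters, Slc16a3, the lactate exporter also called MCT4, read -0.68, -1.0 and -0.94 on the WT arrays at 0 h and 3.00, 2.97 and 2.99 at 3 h. The groups stood far apart, and the difference was 3.86 (SE 0.81, adjusted p = 0.0065). The other monocarboxylate transporter, Slc16a1, fell by 0.65 (adjusted p = 0.045), from between -6.10 and -5.81 to between -6.89 and -6.33. Slc2a1, the ubiquitous glucose transporter GLUT1, was between -1.37 and -1.27 at 0 h and between -0.68 and -0.59 at 3 h, a difference of 0.70 that was not called (adjusted p = 0.10). Slc2a3, the high-affinity transporter GLUT3, went the other way, from 0.50, 0.51 and 0.69 to -0.48, -0.29 and -0.53, a difference of -1.0 (adjusted p = 0.22). Neither glucose transporter had overlapping WT groups, and the SE of 0.58 for Slc2a3 comes from a spread shared with KO arrays that differed among themselves by more than 1 log2 unit.

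In upper glycolysis, the isoforms of phosphofructokinase parted. Pfkm, the muscle isoform, read -1.22, -1.19 and -1.40 at 0 h and -2.97, -2.75 and -3.06 at 3 h, and fell by 1.66 (SE 0.27, adjusted p = 0.0019). Pfkp, the platelet isoform, rose by 0.70 (adjusted p = 0.019), and Pfkl, the liver isoform, by 0.59 (adjusted p = 0.011). The aldolases parted too: Aldoc read -0.57, -0.81 and -0.57, then -1.54, -1.77 and -1.69, and fell by 1.02 (SE 0.20, adjusted p = 0.0043), whereas Aldoa differed by -0.04 and its groups overlapped. Hk2, the inducible hexokinase, differed by 0.70 without a call (adjusted p = 0.22), with values of -4.65, -4.87 and -5.02 before and -3.94, -4.22 and -4.29 after.

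In the lower pathway only Eno1, an enolase, was called. It read 3.12, 3.21 and 3.20 at 0 h and 2.14, 2.11 and 2.16 at 3 h, a fall by 1.05 (SE 0.14, adjusted p = 0.000798); the array design places its single probe on chromosome 2, not on chromosome 4 with the gene, so what it reads is uncertain. Eno2, the other enolase, differed by 0.64 (adjusted p = 0.15), Pgam1 by 0.44 (adjusted p = 0.093) and Gapdh by 0.38 (adjusted p = 0.14). Pgk1 and Pkm2 differed by 0.10 and 0.24.

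At the pyruvate branch, the kinases that switch off pyruvate dehydrogenase moved in opposite directions. Pdk1 read -2.22, -1.49 and -1.26 and then -3.56, -3.35 and -3.35, and fell by 1.76 (SE 0.32, adjusted p = 0.0031). Pdk3 read -2.24, -2.18 and -2.12 and then -0.94, -1.01 and -1.10, and rose by 1.17 (SE 0.18, adjusted p = 0.0016). The lactate dehydrogenase subunits Ldha and Ldhb differed by 0.08 and -0.18, with overlapping groups and no call. Pfkfb4, which sets the level of the phosphofructokinase activator fructose 2,6-bisphosphate, rose by 1.07 (SE 0.26, adjusted p = 0.012) from -2.25, -1.92 and -2.21 to -1.31, -0.85 and -1.02. Its relative Pfkfb3 differed by -0.33 (adjusted p = 0.26).

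Among the oxygen sensors, Egln3, a prolyl hydroxylase that Hif1a itself induces, rose by 2.25 (SE 0.50, adjusted p = 0.0083), from -4.52, -4.44 and -4.27 to -2.23, -2.17 and -2.07. Egln1, the main oxygen sensor, differed by 0.11 with overlapping groups. Hif1a read -1.29, -1.44 and -1.17 at 0 h and 0.18, -0.10 and -0.01 at 3 h. These Hif1a groups did not overlap, but with the spread of all 12 arrays the difference of 1.33 was not called (SE 0.55, adjusted p = 0.097).

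Vegfa, the vascular growth factor and a standard hypoxia target, was well above background on 0 of 3 WT arrays at 0 h and on 3 of 3 at 3 h. Its level at 3 h was -3.89, -3.28 and -3.91 after -8.28, -7.24 and -8.62 (fitted difference 4.35, SE 1.13, adjusted p = 0.017). With this background correction that is at least 14.95-fold higher, taking per array the lowest signal that counts as above background as the bound for 0 h. Normexp background correction gave a difference of 1.64 without a call, below that bound, so the bound depends on the correction. Mxi1, a MAX partner that opposes MYC, was above background on 0 of 3 WT arrays at 0 h and 3 of 3 at 3 h (-6.36, -6.09 and -5.97 after -9.37, -9.31 and -7.84). It entered the test only through this 3 h group, so its call was conditioned on being high there. The bound was at least 2.75-fold (adjusted p = 0.0036, and 0.0077 with no filter on dim probes), but normexp background correction gave a difference of 0.52 (adjusted p = 0.032), below that bound. Ndrg1, a stress-response gene, rose by 2.87 (SE 0.40, adjusted p = 0.00088), from -1.45, -1.04 and -1.06 to 1.85, 1.71 and 1.51. Ero1l, an oxidase of the endoplasmic reticulum, rose by 1.02 (adjusted p = 0.032) and Bnip3l, a mitophagy receptor, by 0.73 (adjusted p = 0.027). Ddit4, an inhibitor of mTOR complex signalling, was the hypoxia target that fell, by 1.04 (SE 0.35, adjusted p = 0.046), from 3.72, 3.94 and 3.79 to 2.68, 2.74 and 2.89. Bnip3, P4ha1 and Ankrd37 differed by 0.11, -0.30 and -0.15, none called, with overlapping groups.

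The WT count depended on which arrays set the spread. Without the arrays from 21-week KO mice, 17 members were higher (45.9%, against 23.2% of all genes) and 9 lower (24.3%, against 31.3%), and all 17 earlier calls were among these 26. The added calls were Hif1a (1.32, SE 0.12, adjusted p = 7.3e-05), Slc2a1 (0.69), Hk2 (0.69), Eno2 (0.64), Pgam1 (0.43) and Gapdh (0.37), all higher, and Slc2a3 (-1.01), Gpi1 (-0.37) and Pfkfb3 (-0.34), all lower. In a fit of the 6 WT arrays alone, 17 members were higher and 11 lower, against 26.9% and 36.7% of all genes. Leaving out WT 0 h replicate 1 or WT 3 h replicate 2 from the 12 arrays left 11 and 10 calls in place of 17. Without any shift between arrays, 9 members were called. Aldoc, Egln3, Ndrg1, Pdk1, Pdk3, Pfkm and Slc16a3 stayed called in WT under every alternative run. The calls of Bnip3l, Ddit4, Ero1l, Pfkp and Slc16a1 were each lost on leaving out any of several single WT arrays: for Bnip3l, any of the 6 (highest adjusted p = 0.083, difference 0.71, without WT 3 h replicate 3); for Ddit4, any of the 6 (0.12, -0.99, without WT 0 h replicate 2), KO 0 h replicate 1 or KO 3 h replicate 2; for Slc16a1, any but WT 3 h replicate 3 (0.16, -0.52, without WT 3 h replicate 1), KO 0 h replicate 2 or KO 3 h replicate 2; for Ero1l, any but WT 0 h replicate 3 (0.12, 0.86, without WT 0 h replicate 2); and for Pfkp, any but WT 3 h replicate 1 (0.063, 0.68, without WT 3 h replicate 3). Vegfa lost its call without WT 0 h replicate 1 or 3 or WT 3 h replicate 2 (4.07 to 4.24, highest adjusted p = 0.059), Pfkfb4 without WT 3 h replicate 2 (0.96, adjusted p = 0.051) and Pfkl without WT 3 h replicate 3 (0.54, adjusted p = 0.052). With normexp background correction Vegfa differed by 1.64, Ero1l by 0.43 and Slc16a1 by -0.26, none called.

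**Figure D2:**
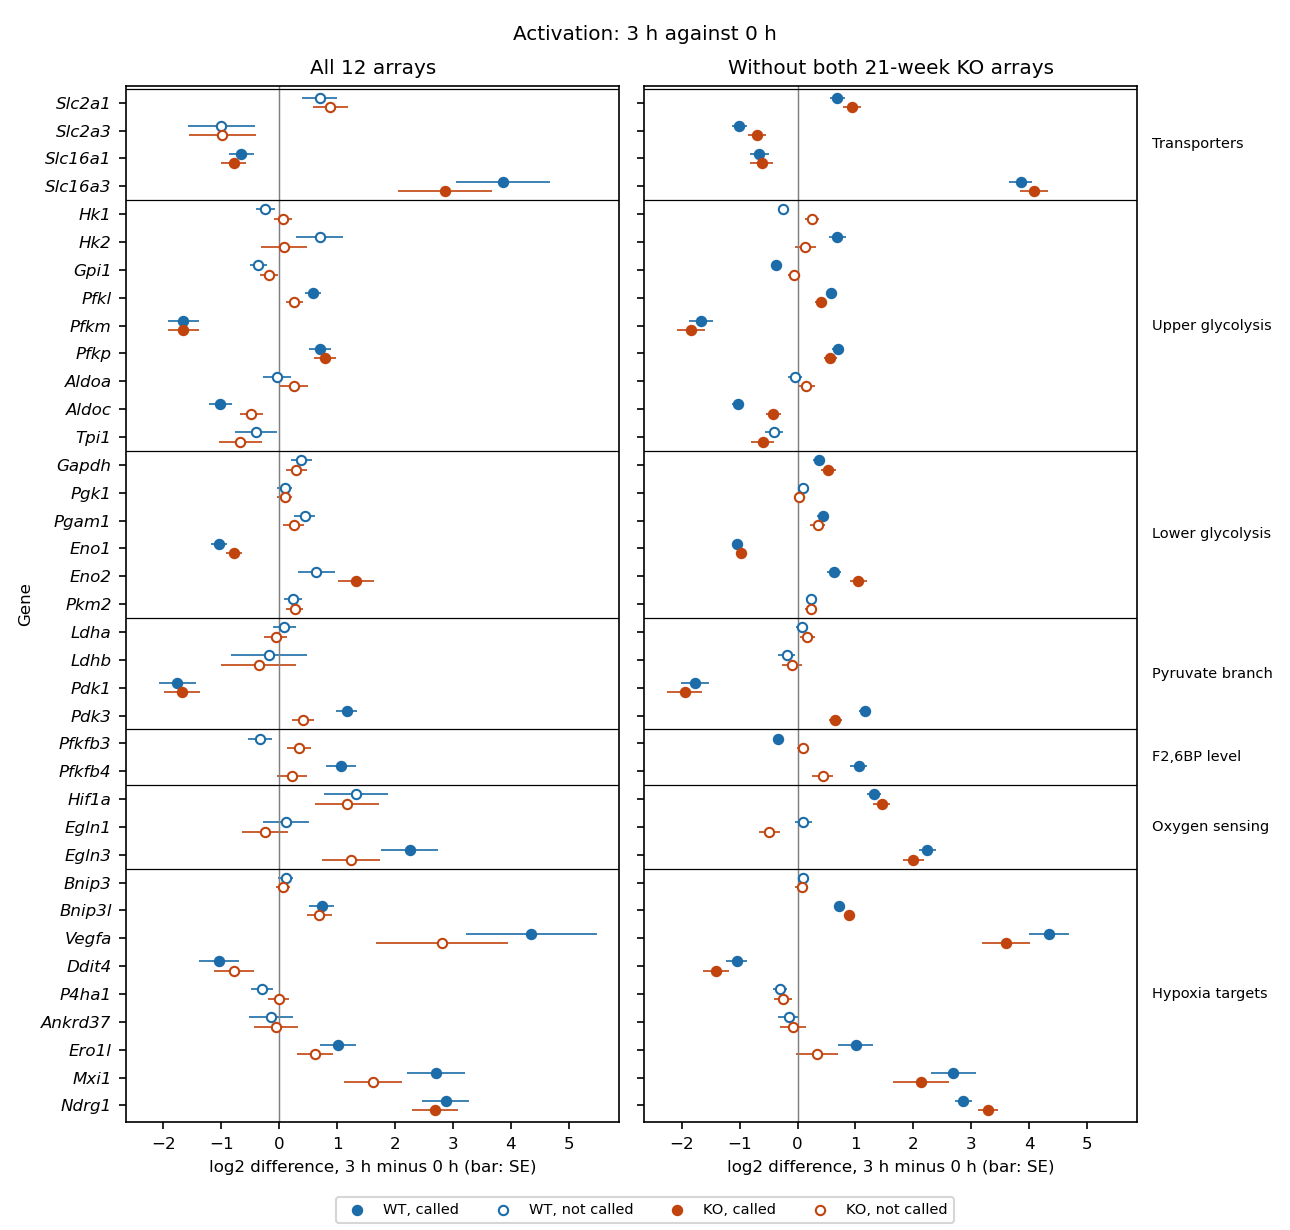
Activation differences (3 h minus 0 h, log2, horizontal axis) of the 37 members in WT (blue) and KO (orange), with bars of 1 SE; filled points were called. The left panel uses all 12 arrays, with 17 WT and 8 KO calls, and the right panel leaves out both arrays from 21-week KO mice, with 26 and 21 calls and shorter bars.

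In KO cells the same activation called fewer members. With 12 arrays, 4 of 37 rose (10.8%, against 7.38% of all genes) and 4 fell (10.8%, against 9.79%), shares near the background. Of these 8 members, 7 were also called in WT, in the same direction, and Eno2 was called in KO alone. How far the calls of all genes overlap between genotypes was not counted. The members' median was 0.22 and that of all genes -0.04.

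Slc16a3 rose by 2.86 (SE 0.81, adjusted p = 0.038), from -1.81, -1.02 and -1.42 to 2.52, 2.85 and -1.04. The groups overlapped: the 21-week array at 3 h read like the arrays at 0 h, and both 10-week arrays were high. With 12 arrays this call was close to the threshold and was lost on leaving out any 1 array other than the 21-week one at 3 h, with differences from 2.15 (adjusted p = 0.13, without KO 3 h replicate 2) to 3.05 (adjusted p = 0.077, without KO 0 h replicate 2). Ndrg1 rose by 2.69 (SE 0.40, adjusted p = 0.0026), from -1.57, -1.74 and -1.58 to 1.65, 1.64 and -0.09, and again the 21-week array was the low one. Eno2 rose by 1.32 (SE 0.31, adjusted p = 0.019), from -3.60, -3.45 and -4.77 to -2.30, -2.62 and -2.93. Pfkp rose by 0.79 (SE 0.19, adjusted p = 0.018), from -0.77, -0.99 and -0.85 to -0.24, -0.36 and 0.37; without KO 0 h replicate 2 it was not called (0.73, adjusted p = 0.068). Eno2 was not called without KO 3 h replicate 1 (1.16, adjusted p = 0.067) or 2 (1.32, adjusted p = 0.055).

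All 4 members that fell in KO had also fallen in WT. Pdk1 read -1.19, -1.70 and -2.42 at 0 h and -3.40, -3.37 and -3.58 at 3 h, a fall by 1.68 (SE 0.32, adjusted p = 0.0073). Pfkm fell by 1.66 (SE 0.27, adjusted p = 0.0037), from -0.93, -0.50 and -0.44 to -2.91, -2.19 and -1.76. Eno1, read by its single probe of uncertain target, fell by 0.78 (SE 0.14, adjusted p = 0.0063), from 2.95, 2.91 and 2.62 to 1.98, 1.95 and 2.23. Slc16a1 was lower at 3 h (fitted difference -0.79, SE 0.22, adjusted p = 0.033), from -5.74, -6.10 and -5.99 to -6.45, -6.61 and -7.13; it was well above background on only 1 of 3 KO arrays at 3 h, so the size of the fall is uncertain. The Slc16a1 call was lost without KO 0 h replicate 1 (-0.69, adjusted p = 0.091) or 2, KO 3 h replicate 2, WT 0 h replicate 2 or 3 or WT 3 h replicate 2, and normexp background correction gave -0.05. In each of these 4 genes every KO array at 3 h was below every KO array at 0 h.

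Without the 21-week arrays, 13 members rose in KO (35.1%, against 19.2% of all genes) and 8 fell (21.6%, against 26.1%). The rises included Slc16a3 at 4.09 (SE 0.24, adjusted p = 2.5e-05), Vegfa at 3.60, Ndrg1 at 3.28, Egln3 at 2.00, Hif1a at 1.45 (SE 0.15, adjusted p = 0.00023), Slc2a1 at 0.94, Bnip3l at 0.89 and Pdk3 at 0.66. Of these, Vegfa, Egln3, Hif1a, Slc2a1, Bnip3l and Pdk3 had not been called in KO with 12 arrays. The added falls were Ddit4 (-1.41), Slc2a3 (-0.70), Tpi1 (-0.60) and Aldoc (-0.42). Of the 21 members called in KO and the 26 called in WT by this fit, 20 were shared in the same direction and 0 in opposite directions. The fit shares its spread between the comparisons, and the overlap over all genes was not counted. Such sharing is therefore not shown to be a trait of the members. Tpi1, triose-phosphate isomerase, was called in KO alone, and Pfkfb4, Hk2, Ero1l, Pgam1, Gpi1 and Pfkfb3 in WT alone.

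With the age of 21 weeks as a term in the fit of 12 arrays (1 shift for both times, added after seeing the data), 10 members rose in KO (against 17.9% of all genes) and 7 fell (against 20.6%), and the earlier 8 calls were among them. The same fit gave 16 higher (against 22.3%) and 8 lower (against 28%) in WT.

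Within the KO slide, the fit of its 6 arrays alone called 0 of 36 tested members, with a smallest adjusted p of 0.081. By adjusted p it called 0.342% of all genes higher and 0.556% lower. At an unadjusted p under 0.05 there were 8 members, and the share of all genes at that cut was not taken. With age as a term, the same 6 arrays called 5 of 36 higher (against 6.83% of all genes), namely Ndrg1 (2.69, adjusted p = 0.018), Vegfa (2.81), Eno2 (1.32), Hif1a (1.16, adjusted p = 0.036) and Slc2a1 (0.88), and 3 lower (against 9.46%), Pdk1 (-1.68), Pfkm (-1.66) and Eno1 (-0.78); Slc16a3 was then at 2.86 (adjusted p = 0.063). The 4 arrays from 10-week mice on the same slide gave 7 members higher and 4 lower, against 7.99% and 13.6% of all genes, and Slc16a3 (4.09), Vegfa (3.60), Ndrg1 (3.28), Egln3 (2.00) and Hif1a (1.45) were again among those called. With 12 arrays, leaving out KO 3 h replicate 3, a 21-week array, raised the KO count from 8 to 16, and leaving out KO 0 h replicate 2 or KO 3 h replicate 2 lowered it to 5. Without a shift between arrays, 1 member was called higher and 5 lower.

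Whether activation acted differently in KO and WT was tested by the difference between the activation effects. With 12 arrays 0 of 37 members were called (0% of all genes), and 3 had an unadjusted p under 0.05: Pdk3 (-0.76), Pfkfb4 (-0.85) and Pfkfb3 (0.67), each with an adjusted p of 1.0. The largest differences in size, KO minus WT, were Vegfa at -1.54 (SE 1.60), Mxi1 at -1.07 (SE 0.71) and Egln3 at -1.01 (SE 0.71); Vegfa was not above background in WT at 0 h, nor Mxi1 in either genotype at 0 h or on 2 of 3 KO arrays at 3 h, so those fitted sizes are not measured differences. With age as a term 0 members were called (0.00539% of all genes higher and 0% lower; 6 members at an unadjusted p under 0.05). Without the 21-week arrays 0 members were called (0.105% of all genes), 8 had an unadjusted p under 0.05, and the smallest adjusted p was 0.42, for Aldoc (0.60, SE 0.17) and Pdk3 (-0.50, SE 0.14). The percentages here are for adjusted calls. The share of all genes at an unadjusted p under 0.05 was not taken, so those counts show no excess in the members. With 0 members called, calls in 1 genotype alone, listed above, are not shown to differ between genotypes. Slc16a3 changed sign in this comparison, from -1.0 (SE 1.15) with 12 arrays to 0.23 (SE 0.32) without the 21-week arrays.

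Between genotypes, few members differed. At 0 h, 0 of 37 were higher in KO (against 1.82% of all genes) and 1 was lower (2.70%, against 0.259% of all genes). That member was Aldoc, the brain-type aldolase, which read -1.96, -1.86 and -1.32 in KO and -0.57, -0.81 and -0.57 in WT, a difference of -1.07 (SE 0.20, adjusted p = 0.025) with no overlap. The call was lost without KO 0 h replicate 1 or 2 or WT 0 h replicate 1 or 3, and in the fit of the 0 h arrays alone, where 0 members were called. The larger differences without a call were Vegfa, at 2.78 (adjusted p = 0.28), and Hk2, at 1.12 (adjusted p = 0.21). Vegfa was well above background in KO, at -6.80, -6.82 and -2.18, and not in WT. With the main background correction that bounds it at 5.03-fold or more with 12 arrays. Without the 21-week array, the high one, the bound is 1.71-fold or more. Hk2 read -4.01, -4.32 and -2.84 on the KO arrays, all above the WT values of -4.65, -4.87 and -5.02. The members' median was -0.21 and that of all genes -0.03, with 25 members below 0 and 12 above.

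Without the 21-week arrays, 3 members were lower in KO at 0 h (8.11%, against 2.10% of all genes) and 1 was higher (2.70%, against 4.64%). Aldoc differed by -1.28 (SE 0.12, adjusted p = 0.0024), Slc2a3 by -0.63 (SE 0.14, adjusted p = 0.044) and Gpi1, the isomerase that follows hexokinase, by -0.37 (SE 0.09, adjusted p = 0.049). Pfkfb4 was higher by 0.75 (SE 0.17, adjusted p = 0.039), at -1.30 and -1.43 against -2.25, -1.92 and -2.21. The last 3 lay close to the threshold. Leaving out KO 3 h replicate 3 alone also called Pfkfb4, at 0.69. With age as a term, Aldoc was lower (-1.22, adjusted p = 0.0024) and Pfkfb4 (0.88, adjusted p = 0.039) and Hk2 (0.71, adjusted p = 0.039) were higher in KO at 0 h, against 0.868% of all genes lower and 3.23% higher.

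At 3 h, 0 members were called in either direction with 12 arrays (against 1.26% of all genes higher and 0.189% lower), and 4 had an unadjusted p under 0.05. The largest differences were Egln3 at -1.59 (adjusted p = 0.24), Slc16a3 at -1.55 (adjusted p = 0.53) and Vegfa at 1.24 (adjusted p = 0.64). Egln3 read -3.24, -2.77 and -5.25 in KO and -2.23, -2.17 and -2.07 in WT, so all 3 KO arrays lay below all WT arrays. Without the 21-week arrays, Egln3 was lower by 0.86 on the log2 scale (SE 0.16, adjusted p = 0.046) and Aldoc by 0.67 (SE 0.12, adjusted p = 0.033); 2 of 37 members is 5.41%, against 0.606% of all genes lower, and 0 were higher, against 1.32%. Slc16a3 then differed by -0.33 (SE 0.22, adjusted p = 0.64) and Hif1a by 0.21 (SE 0.14, adjusted p = 0.62). With age as a term only Aldoc was called at 3 h (-0.69, adjusted p = 0.025; 0.367% of all genes were lower and 1.53% higher). Leaving out KO 3 h replicate 1 called Pfkm higher in KO, at 0.95 (adjusted p = 0.045). Each difference between genotypes is also a difference between slides.

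**Figure D3:**
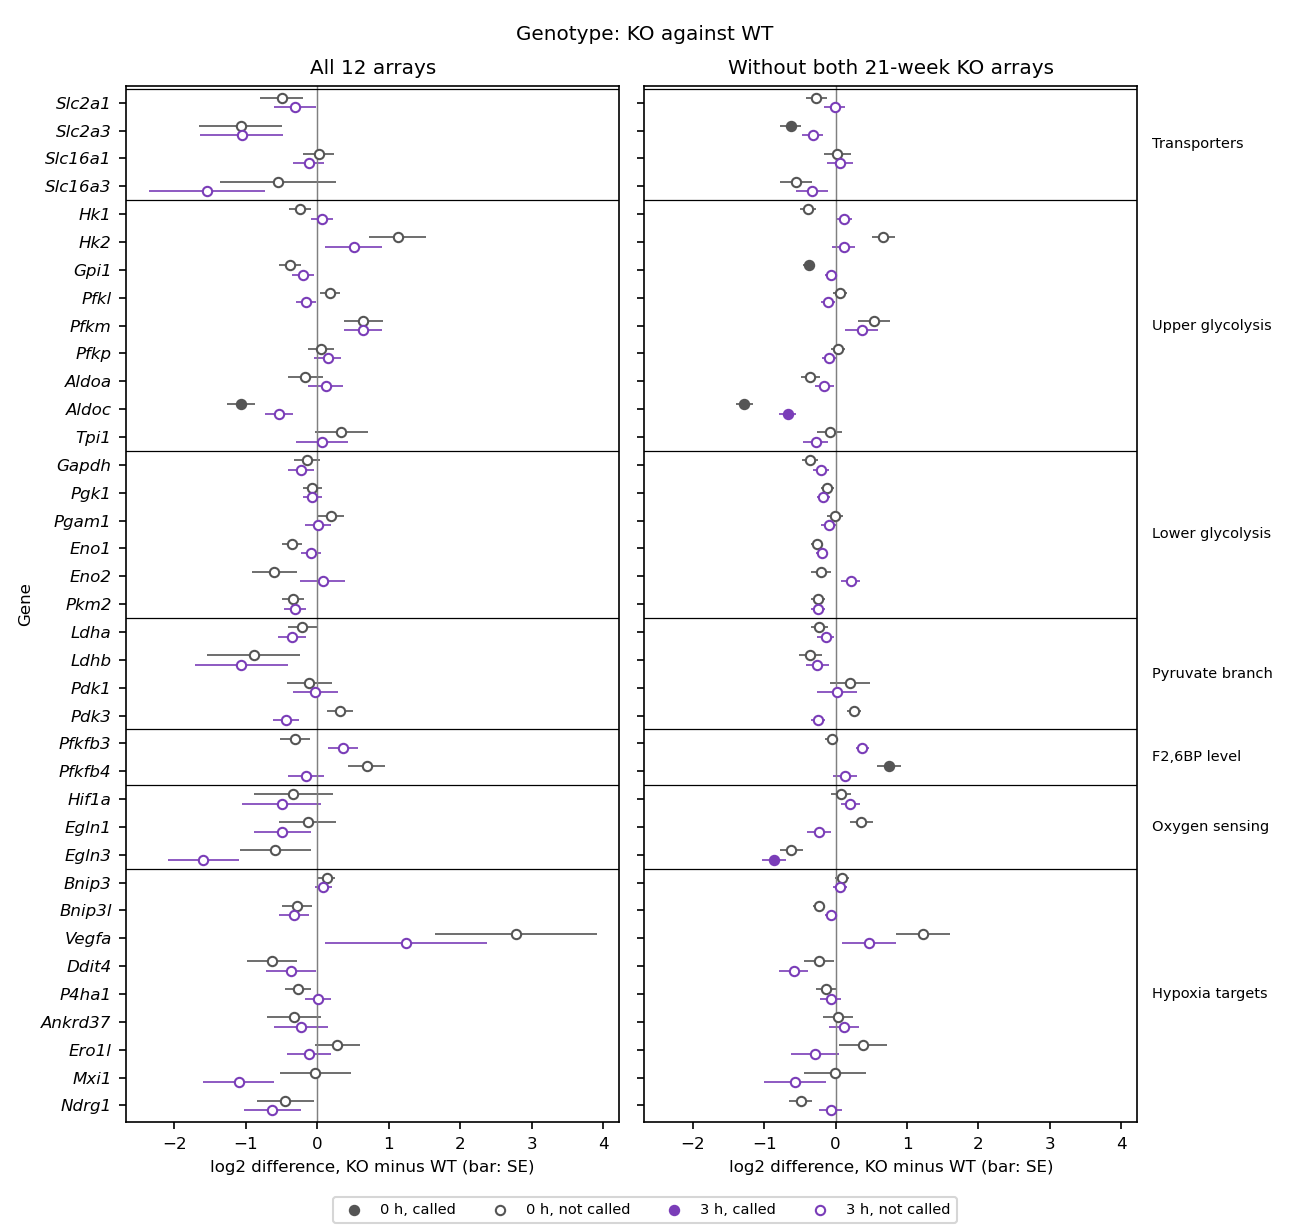
Genotype differences (KO minus WT, log2, horizontal axis) of the 37 members at 0 h (grey) and 3 h (purple), with bars of 1 SE; filled points were called. With 12 arrays (left) only Aldoc at 0 h was called; without both arrays from 21-week mice (right) Aldoc, Slc2a3, Gpi1 and Pfkfb4 at 0 h and Aldoc and Egln3 at 3 h were.

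The arrays from 21-week KO mice differed from those of 10-week mice in more members at 3 h than the 10-week arrays differed from each other. With 1 array of that age at each time these are values with no test. No matching count or median over all genes was taken, so the counts at 3 h and at 0 h are not shown to be a trait of the members. The gap between the 10-week arrays had a median over members of 0.19 at 0 h and 0.12 at 3 h, and the distance of the 21-week array from their mean had a median of 0.39 and 0.67. At 3 h, 8 members were more than 1 log2 unit lower on the 21-week array and 2 were higher. Slc16a3 was 3.72 lower, Ldhb 2.49, Slc2a3 2.27, Egln3 2.24, Hif1a 2.17, Ndrg1 1.74, Ankrd37 1.09 and, near background, Mxi1 1.65, as differences from the 10-week mean. Vegfa was 2.25 higher there and Hk2 1.13.

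At 0 h, 7 members were more than 1 log2 unit lower on the 21-week array, among them Ldhb at -1.08 against a 10-week mean of 0.58, Hif1a at -2.49 against -1.21 and Slc2a3 at -1.43 against -0.04, and 3 were higher. Vegfa read -2.18 against -6.81. The T cell and plasma cell marker means given above moved with these values on the same arrays, and their part in them was not tested. Pdk1 and the probe named Eno1, which were lower at 3 h in both genotypes, read -3.58 and 2.23 on the 21-week array at 3 h, below all arrays at 0 h.

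**Figure D4:**
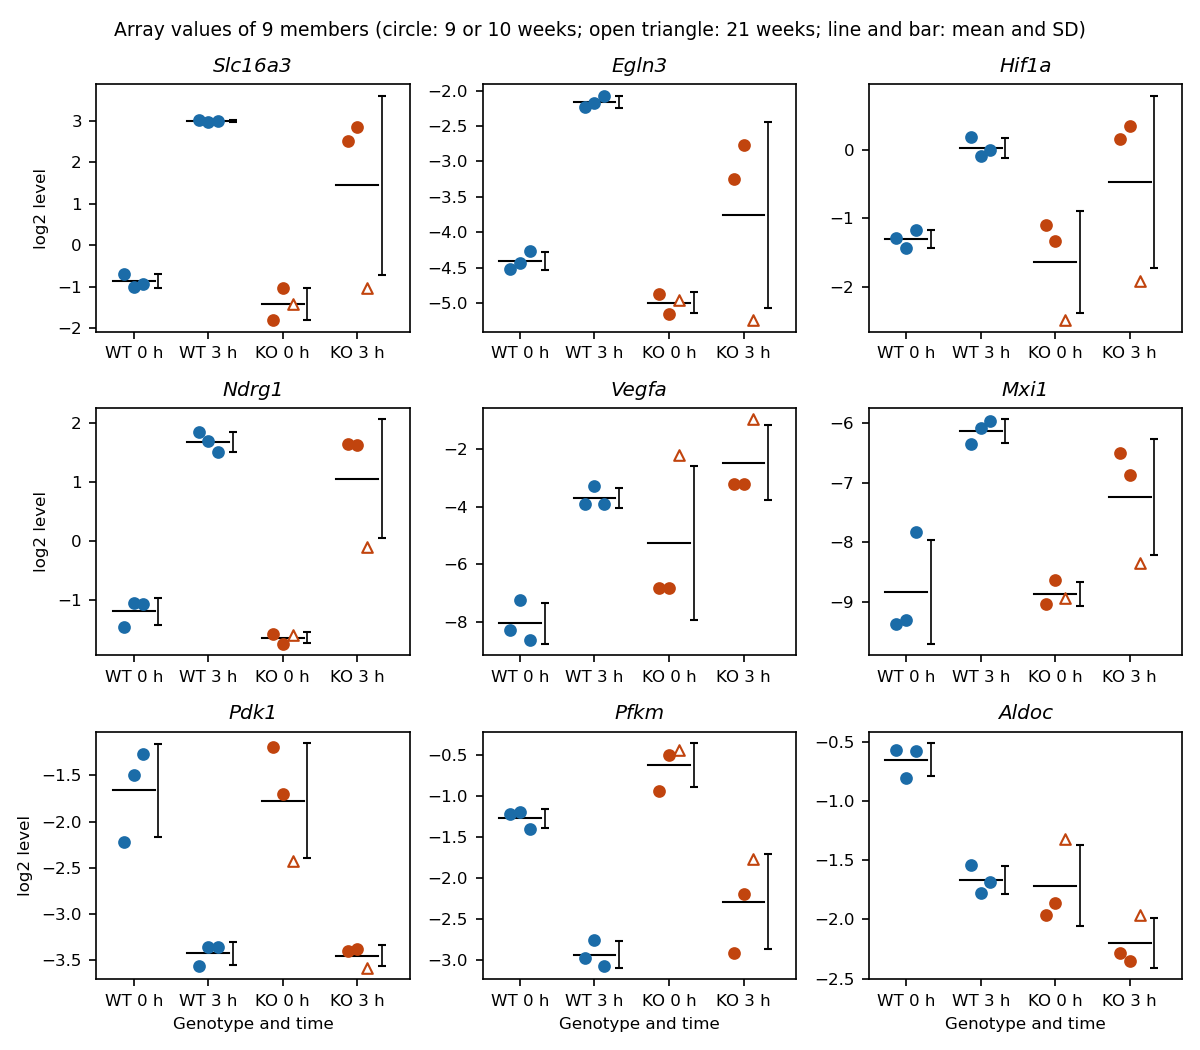
Log2 levels of 9 members on each array by genotype and time; filled circles are arrays from mice of 9 or 10 weeks, open triangles are arrays from 21-week KO mice, and lines and bars are the mean and SD of 3 arrays. At 3 h the triangle of Slc16a3 (-1.04) and of Egln3 (-5.25) sits at the level of the 0 h arrays, that of Vegfa (-0.96) above all others, and that of Pdk1 (-3.58) with the other 3 h arrays.

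The relation of the members to neighbouring pathways was read from lists that do not overlap with them. Of 28 tested genes among 35 other genes of glycolysis, 4 rose (14.3%, against 13.3% of all genes) and 6 fell (21.4%, against 16.6%) on activation in WT, and 2 rose (7.14%, against 7.38%) and 5 fell (17.9%, against 9.79%) in KO. Called in WT by the leading moderated statistics were Slc2a9, a urate and sugar transporter, the muscle enolase Eno3 (-1.69, adjusted p = 0.0011) and Pfkfb2, another fructose 2,6-bisphosphate enzyme. Slc2a9 was well above background on 3 of 3 WT arrays at 0 h and 1 of 3 at 3 h (adjusted p = 0.00085), so its fitted difference of -3.19 is uncertain in size, and Pfkfb2 on 3 and 0, at least 2.10-fold lower (adjusted p = 0.0014). In KO the leading genes were Pfkfb2, Slc2a9 and the liver and red-cell pyruvate kinase Pklr, each above background on 3 arrays at 0 h and 0 at 3 h, and at least 1.65-fold, 2.00-fold and 1.88-fold lower. Pfkfb2 and Slc2a9 entered the test only through the 0 h groups, and Pklr only through KO at 0 h. Their calls as falls were therefore conditioned on being high there. Between genotypes, the list had 2 members higher and 0 lower at each time. Over all genes, 1.82% were higher and 0.259% lower at 0 h, and 1.26% and 0.189% at 3 h. The 2 were the myeloid hexokinase Hk3 at 2.24 and 3.10 and glycerol phosphate dehydrogenase Gpd1 at 2.42 and 2.83, for 0 h and 3 h. Monocyte and macrophage markers were higher in KO at the same times, as given above, and their part in these values was not tested.

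In the pentose phosphate pathway, which branches from glucose 6-phosphate, 1 of 8 genes rose (12.5%, against 13.3% of all genes) and 3 fell (37.5%, against 16.6%) in WT, the falls being H6pd (-1.76, adjusted p = 0.0077), Taldo1 (-0.71) and Pgls (-0.94); in KO 1 fell, Tkt (-0.59, adjusted p = 0.042), and 0 rose. No gene of this pathway was called between genotypes by limma, with 0 of 8 at an unadjusted p under 0.05 at either time.

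Among 36 other hypoxia genes, 33 were tested; 6 rose (18.2%, against 13.3% of all genes) and 5 fell (15.2%, against 16.6%) in WT, and 4 rose (12.1%, against 7.38%) and 7 fell (21.2%, against 9.79%) in KO. The leading genes by statistic were falls. Hif3a, a relative of Hif1a, differed by -3.29 in WT and -2.72 in KO, and Ppfia4 by -2.81 and -3.32. Angptl4 differed by -2.02 in WT, and the carbonic anhydrase Car9 by -2.64 in KO. Hif3a and Car9 were above background on only 1 of 3 KO arrays at 3 h, so these KO sizes are uncertain. Car9 entered the test only through the 0 h groups, so its call was conditioned on being high there. Ppfia4 (2.20) and the transferrin receptor Tfrc (1.70) were higher in KO at 0 h, and Angptl4 (1.82) and haem oxygenase Hmox1 (2.32) at 3 h; Hmox1 was not called at 3 h without the 21-week arrays (2.13, adjusted p = 0.10). That fit called 3 of these genes higher (9.09%, against 4.64% of all genes) and 1 lower (against 2.10%) at 0 h. The added calls were Hmox1 (2.14) and the nuclear receptor Rora (-1.03, adjusted p = 0.0075). At 3 h it called 1 higher (against 1.32%). Erythroid and monocyte markers were also higher in KO at 0 h, as given above, and their part in the values of Tfrc, Hmox1 and the others was not tested. Of 25 regulators of T cell glycolysis, 4 rose (16.0%, against 13.3% of all genes) and 1 fell (4.0%, against 16.6%) in WT, and 4 rose (16.0%, against 7.38%) and 0 fell (against 9.79%) in KO. They were led in WT by the stress sensor Sesn2 (1.92, adjusted p = 0.00082), the mTOR activator Rheb (1.28, adjusted p = 0.0014) and the transcription factor Foxo3 (1.90, adjusted p = 0.0041). In KO, Sesn2 rose by 1.75, Rheb by 1.15 and the mTOR complex subunit Rptor by 0.52. None of these 25 was called between genotypes with 12 arrays, and 1 had an unadjusted p under 0.05 at each time (limma). Leaving out the 21-week arrays called Foxo1 lower in KO at 0 h (-0.38, adjusted p = 0.044) and Pik3ip1 higher at 3 h (1.19, adjusted p = 0.039). Without the 21-week arrays the activation calls in WT and KO were 16 and 15 for the other glycolysis genes, 6 and 6 for the pentose phosphate pathway, 20 and 18 for the other hypoxia genes, and 16 and 15 for the regulators; in that fit 23.2% of all genes were higher and 31.3% lower in WT, and 19.2% and 26.1% in KO.

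Probes of the same gene gave unlike values for Hk1, Pfkp, Gapdh, Ldha and Pfkfb3 in ways that bear on their values. Of the 37, 15 had 2 or more tested probes and 22 had 1, and 5 probes lie on another chromosome than the gene by the array design (mm9), 4 of them the brightest of their gene (Hk1, Gapdh, Pgk1 and Eno1). The opening 30 bases of the probes of Hk1 and Pfkp, each 60 bases long, are shown because probes under 1 name gave different values.
Hk1 probe on chr5: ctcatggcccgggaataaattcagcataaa
Hk1 probe on chr10: ggaatctcccatcgctttagtgagccattg
Hk1 second probe on chr10: aaggaactgtcaccaaagtgtaccgtgtcc
Pfkp brighter probe: caaactgaaggggtcccagggcacagggaa
Pfkp dimmer probe: cttcatggtctcagaatttccttcagagtt
The brightest Hk1 probe, placed at chr5:22118404-22118463, differed by -0.24 on WT activation and was not called. Both probes placed on the chromosome of Hk1, at chr10:61731856-61731915 and chr10:61732717-61732776, fell by 0.95 (adjusted p = 0.0031) and 0.64 (adjusted p = 0.012) in WT, where every tested probe was fitted on its own, and by 0.59 (adjusted p = 0.040) and 0.64 (adjusted p = 0.021) in KO. The brighter Pfkp probe rose in both genotypes (0.70 and 0.79), while the other differed by -0.59 (adjusted p = 0.24) and -0.72 (adjusted p = 0.19), and the mean of both was not called in either genotype. Of 7 Gapdh probes, all differed upward in WT (0.38 to 0.68), and 3 were called, while the brightest was not. The probes of Pfkfb3 differed by -0.33 and 0.25 in WT and by 0.34 and 1.31 in KO, where the dimmer probe was called (adjusted p = 0.0070) and the brighter was not. In contrast, both probes of Slc16a3 gave 3.86 and 3.91 in WT, both of Egln3 2.25 and 2.49, both of Hif1a 1.33 and 1.63, and both of Vegfa 4.35 and 4.22.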

How the data were processed

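The deposited scanner files hold 1 array each, with spot intensity values on a linear scale that Agilent Feature Extraction had background-subtracted and detrended within the array, per the file headers (version 10.7.3.1; the submitters' processing notes give 11). The authors' deposited value table holds log2 values with a median of 3.89 on every array; how these were scaled is not stated in the sources used here, which name Partek. Each of its 12 columns correlated best in rank with its own array's scanner file, and it served as an alternative.

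Control and outlier spots were left out, spots of a probe were averaged, and log2 processed signals were shifted by each array's 75th percentile, taken over the 19799 probes that passed the background test on 12 of 12 arrays; 42.9% to 54.6% of probes passed it per array. No probe was saturated. A probe was tested if well above background throughout at least 1 group, and each gene took its brightest tested probe. Probe positions are those of the array design (mm9). The 4 group means were fitted in 1 model with limma 3.58.1 in R 4.3.3 (lmFit, eBayes, two-sided), with Benjamini-Hochberg adjustment over 18545 genes and a threshold of 0.05. The script was tested on simulated data.

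The members and gene lists were chosen with earlier results of these data known. Every called member is named, the 12 largest with full values; where fewer than 3 were called, the largest differences are given as values. At least 1 member of each role has its array values, and each other list gives up to 3 called genes by moderated statistic. Alternatives changed the normalization, background correction, filter, probe choice and arrays; a probe on the gene's own chromosome, the 4 arrays from 10-week KO mice alone, and age as a term, were chosen after seeing the data. The number of arrays limits the precision.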

Additional observations from a re-analysis of the deposited data

How the results depend on the processing

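No paired analysis was possible because the labels do not tie arrays to mice, and the replicate numbers follow accession order only. Of 26 calls of a member in a comparison, 0 reversed and 8 stayed called under every alternative run that tested them; 1 of the 8, Mxi1, passed the filter only through the group where it was high. Without the 21-week arrays the members called were 4 for KO against WT at 0 h (1 with 12 arrays), 2 at 3 h (0), 26 for activation in WT (17) and 21 in KO (8). Fits of the compared arrays alone gave 0 at 0 h, 28 for WT and 0 for KO activation, the last with 8 members at an unadjusted p under 0.05 in limma. The age of 21 weeks as a term, added after seeing the data, gave 3 at 0 h, 1 at 3 h, 24 for WT and 17 for KO activation, and 8 in the KO arrays alone. No filter on dim probes gave 0 at 0 h and 5 for KO activation, and no shift between arrays gave 9 for WT activation. Leaving out 1 array at a time gave 0 to 2 calls at 0 h, 0 to 1 at 3 h, 10 to 21 for WT and 5 to 16 for KO activation. The single-array, no-filter and no-shift counts, here and above, stand without the share of all genes called in those fits. They show how far the calls moved and not a trait of the members. Counts at an unadjusted p under 0.05, here and above, also stand without the share of all genes at that cut. The difference between the activation effects stayed at 0 calls in every fit run. The cause was not tested, except that fits with fewer arrays hold fewer samples. Without a shift between arrays the median of all genes moved from 0.04 to -0.36 for KO against WT at 3 h and from -0.04 to -0.34 for KO activation, and with the percentile over all probes from -0.03 to -0.21 for KO against WT at 0 h. Vegfa in WT and Mxi1 in both genotypes at 0 h were not above background and have only a bound there; Mxi1 and Slc16a1 were above it on 1 of 3 KO arrays at 3 h.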
